A study of Oryza sativa with 16 samples.

Results

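Panicle branching and spikelet meristem genes were followed as 10 rice loci. They were chosen by identity and not by a rule on their values, though with earlier results of these data known. They are OSH1 (LOC_Os03g51690), LAX1 (LOC_Os01g61480), LAX2 (LOC_Os04g32510), MOC1 (LOC_Os06g40780), APO1 (LOC_Os06g45460), APO2/RFL (LOC_Os04g51000), TAW1 (LOC_Os10g33780), FZP (LOC_Os07g47330), SNB (LOC_Os07g13170) and IDS1 (LOC_Os03g60430). All 10 are among the 55801 genes of the panicle count table, and 7 of them had at least 10 estimated counts summed over the libraries used, as had 33698 genes in all.

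The libraries came from panicles of pot-grown plants of DTY-IL and Swarna, 4 per genotype and treatment, each named as an independent biological replicate. DTY-IL is a single introgression line into which fragments of N22, a drought-tolerant donor, were crossed, and Swarna is the drought-susceptible variety that served as its recurrent parent. Plants under reproductive-stage drought stress (RDS) received water to 75% of field capacity over 9 days and then to 50% over another 3, and controls were kept well watered. Panicles of DTY-IL drought, DTY-IL control, Swarna drought and Swarna control plants were harvested whole on day 12, at the R3 stage. Because 1 line carries all fragments, a difference between genotypes cannot be assigned to any one of them.

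A rice panicle forms when the shoot apex becomes an inflorescence meristem, which sets branch meristems on its flanks before each branch tip and side bud turns into a spikelet. OSH1, a class I KNOX homeobox factor, keeps meristem cells undifferentiated. LAX1, LAX2 and MOC1 are needed to start axillary meristems, APO1, APO2/RFL and TAW1 hold meristems in the branching phase, and FZP, SNB and IDS1 act in the spikelet, where they settle its identity and its turn to flower formation. This programme starts early in panicle growth, and at the R3 stage the panicle is emerging and its branches are already laid down.

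The 15 libraries used held 24677520 to 31080042 counts in total, and 3 counts, taken as the floor of detection, corresponded to 0.0965 to 0.122 CPM (counts scaled by the library total alone). The levels in CPM given below for these libraries were scaled by library size and TMM factor. Swarna control replicate 3, which the study set aside as an outlier, was left out. That library had 0 counts of OSH1 and 314 counts of SNB in a total of 29034763, and its summed level over 6 floral organ loci was 11.7 CPM, with 2 of the 6 at 0, while its sum over 4 green tissue loci was 28340 CPM. Its sums were scaled by the library total without a TMM factor. In the other libraries the floral organ sum was 495.9 to 764 CPM in DTY-IL drought, 878 to 1161 CPM in DTY-IL control, 328.4 to 570.6 CPM in Swarna drought and 1046 to 1127 CPM in Swarna control, with none of the loci at 0. The sum over 4 loci of dividing cells was 25 to 35.9 CPM in DTY-IL drought, 40.1 to 51.5 CPM in DTY-IL control, 16.1 to 20.2 CPM in Swarna drought and 45.8 to 46.5 CPM in Swarna control. The sum over 4 loci of green tissue was 278.6 to 4171 CPM in DTY-IL drought, 5731 to 15970 CPM in DTY-IL control, 268.4 to 1130 CPM in Swarna drought and 8028 to 13860 CPM in Swarna control. Floral organ loci were present in all 15 libraries, as a panicle label requires, and the drought libraries held lower sums of all 3 lists than the controls of the same genotype. By locus, 5 of the 6 floral organ loci fell in DTY-IL at an adjusted p of at most 0.05 (edgeR). So did 1 of the 4 loci of dividing cells and 1 of the 4 green tissue loci. In Swarna all loci of the 3 lists did. Of all tested genes 17% fell in DTY-IL and 22.7% in Swarna, so the 1 of 4 counts in DTY-IL lie near the background. Fewer cells of a type and less RNA per cell cannot be told apart in such bulk samples, and the part of these lists in the results below was not tested.

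OSH1 had the lowest adjusted p of the members and fell under RDS in both genotypes. Its level was 61.8, 43.2, 47.4 and 33.8 CPM in DTY-IL drought replicates 1 to 4, against 84.9, 100.5, 86.2 and 126.8 CPM in DTY-IL control replicates 1 to 4. In Swarna it was 50.5, 40.8, 50.8 and 47.1 CPM in drought replicates 1 to 4, against 141.4, 123.9 and 104.0 CPM in control replicates 1, 2 and 4. Every drought library lay below every control library of its genotype. The means were 46.6 ± 11.6 CPM in DTY-IL drought (SD, n = 4) against 99.6 ± 19.4 CPM in DTY-IL control (SD, n = 4). They were 47.3 ± 4.64 CPM in Swarna drought (SD, n = 4) against 123 ± 18.7 CPM in Swarna control (SD, n = 3).

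In the quasi-likelihood test of edgeR, with p adjusted after Benjamini and Hochberg over all tested genes, the log2 fold change of OSH1 between drought and control was -1.10 ± 0.19 (SE) in DTY-IL (adjusted p = 0.000842) and -1.38 ± 0.20 in Swarna (adjusted p = 9.87e-05). These correspond to 0.468 and 0.384 times the control level. The drought effects differed by 0.28 ± 0.27 on the log2 scale, DTY-IL minus Swarna, with a 95% interval of -0.29 to 0.86 (edgeR, adjusted p = 0.709), so a difference of either sign within that interval was not resolved. With Swarna control replicate 3 included, the lower level of OSH1 no longer passed in either genotype, with a log2 fold change of -1.12 in DTY-IL (edgeR, adjusted p = 0.432) and -0.98 in Swarna (adjusted p = 0.448). It passed in each of the 15 fits that left out 1 library.

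**Figure D1:**
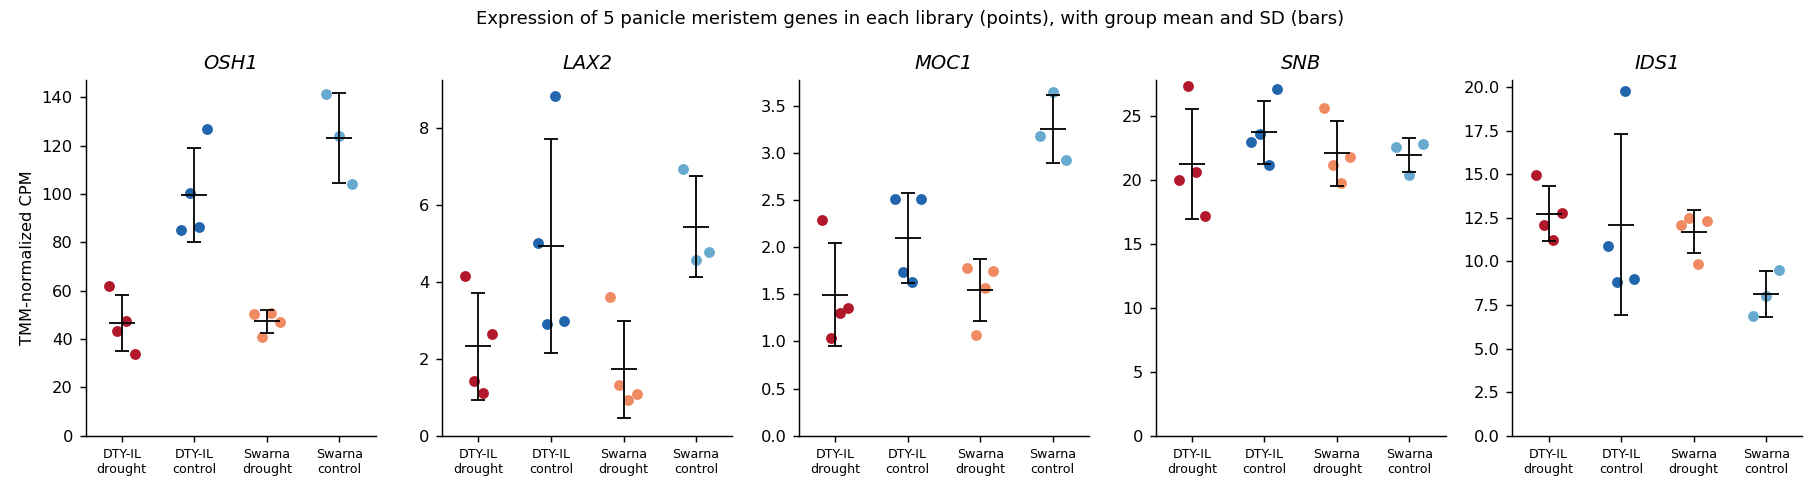
TMM-normalized CPM of OSH1, LAX2, MOC1, SNB and IDS1 (1 panel each, linear axes from 0) in every library, with points for libraries, long ticks for group means and whiskers for the SD (n = 4, or 3 for Swarna control). OSH1 separates the drought libraries, at 33.8 to 61.8 CPM, from the control libraries, at 84.9 to 141.4 CPM, in both genotypes, while SNB stays between 17.2 and 27.4 CPM throughout.

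Of the genes that start axillary meristems, LAX2 and MOC1 fell under RDS in Swarna, and LAX1 was at the floor everywhere. LAX2 encodes a nuclear protein that acts together with LAX1. It stood at 4.16, 1.41, 1.11 and 2.64 CPM in DTY-IL drought replicates 1 to 4, against 5.02, 2.91, 8.84 and 2.99 CPM in DTY-IL control replicates 1 to 4. In Swarna it stood at 3.60, 1.33, 0.918 and 1.07 CPM in drought replicates 1 to 4, against 6.95, 4.58 and 4.78 CPM in control replicates 1, 2 and 4. The DTY-IL groups overlapped, with drought replicate 1 above 2 of the controls, and the Swarna groups did not, although drought replicate 1 lay well above the other drought libraries.

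The log2 fold change of LAX2 was -1.09 ± 0.51 in DTY-IL (edgeR, adjusted p = 0.114) and -1.65 ± 0.55 in Swarna (adjusted p = 0.0244). The drought effects differed by 0.56 ± 0.74 (DTY-IL minus Swarna, 95% interval -1.03 to 2.15, edgeR adjusted p = 0.806). Both calls turned on single libraries. In DTY-IL the difference passed without drought replicate 1, where the log2 fold change was -1.55 (edgeR, adjusted p = 0.0398). In Swarna it did not pass without control replicate 1 (edgeR, adjusted p = 0.0866) or without drought replicates 2, 3 or 4 (adjusted p = 0.07, 0.0644 and 0.0628).

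MOC1 is a GRAS-family regulator that acts in the start of axillary meristems. Its level was 2.28, 1.04, 1.3 and 1.36 CPM in DTY-IL drought replicates 1 to 4, against 2.51, 1.73, 1.63 and 2.51 CPM in DTY-IL control replicates 1 to 4. In Swarna it was 1.78, 1.07, 1.57 and 1.75 CPM in drought replicates 1 to 4, against 3.18, 3.64 and 2.93 CPM in control replicates 1, 2 and 4. In DTY-IL drought replicate 1 again reached into the control range, and the Swarna groups were apart from each other. The log2 fold change was -0.49 ± 0.28 in DTY-IL (edgeR, adjusted p = 0.186) and -1.07 ± 0.29 in Swarna (adjusted p = 0.00862). It was -0.81 in DTY-IL without drought replicate 1 (edgeR, adjusted p = 0.0348). The difference between the drought effects was 0.59 ± 0.40 (DTY-IL minus Swarna, 95% interval -0.28 to 1.45, edgeR adjusted p = 0.588).

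Under control conditions MOC1 was at most 2.51 CPM in DTY-IL and at least 2.93 CPM in Swarna, so the genotypes did not overlap there. The log2 fold change of DTY-IL against Swarna was -0.63 ± 0.29, with an unadjusted p of 0.0468 (edgeR) that did not pass adjustment over all genes (adjusted p = 0.447). LAX1, a basic helix-loop-helix factor at the boundary of new axillary meristems, had 0 counts in all 4 DTY-IL drought libraries, 1 count in DTY-IL control replicate 4, 0 counts in all 4 Swarna drought libraries, and 1 count each in Swarna control replicates 2 and 4. No difference could be detected for LAX1 at this depth.

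The members of the branching phase were all measured from few reads. APO2/RFL, the rice relative of LEAFY, had 3, 0, 0 and 0 counts in DTY-IL drought replicates 1 to 4, against 1, 4, 14 and 3 counts in DTY-IL control replicates 1 to 4. In Swarna it had 0, 0, 1 and 0 counts in drought replicates 1 to 4, against 13, 5 and 10 counts in control replicates 1, 2 and 4. The DTY-IL groups overlapped, while the highest Swarna drought library held 1 count and the lowest Swarna control library held 5.

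Summed over the libraries of a group and divided by their total counts, APO2/RFL in drought was 0.149 times the control level in DTY-IL (3 against 22 counts, exact 95% interval 0.0286 to 0.496). It was 0.0297 times the control level in Swarna (1 against 28 counts, exact 95% interval 0.000726 to 0.18). Such intervals, and the floor of 3 counts, cover counting error only. The test over libraries gave a log2 fold change of -2.63 ± 1.06 in DTY-IL (edgeR, adjusted p = 0.0696) and -4.60 ± 1.22 in Swarna (adjusted p = 0.00734). The difference in DTY-IL passed without DTY-IL drought replicate 1 (log2 fold change -5.44, edgeR adjusted p = 0.014) and without DTY-IL control replicate 1 (-2.95, adjusted p = 0.0484). The drought effects of the genotypes differed by 1.97 ± 1.77 (95% interval -1.82 to 5.77, edgeR adjusted p = 0.689).

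TAW1, an ALOG-family protein that prolongs branching, was the only member with an adjusted p of at most 0.05 for a rise, and that rise came from 2 libraries. It had 0, 12, 15 and 0 counts in DTY-IL drought replicates 1 to 4, against 0, 0, 1 and 0 counts in DTY-IL control replicates 1 to 4. In Swarna it had 0, 1, 1 and 0 counts in drought replicates 1 to 4, against 2, 1 and 1 counts in control replicates 1, 2 and 4. DTY-IL drought replicates 2 and 3 were above the floor, and the other 13 libraries were not. These replicates 2 and 3 had tapetum sums of 8.29 and 9.43 CPM and green tissue sums of 278.6 and 1724 CPM, the lowest of their group, as were their meiocyte sums of 25.7 and 23.7 CPM. Replicates 1 and 4 of DTY-IL drought had tapetum sums of 40.4 and 29.4 CPM and green tissue sums of 4171 and 3198 CPM. The floral organ sums (540.7 and 495.9 CPM) and pollen sums (6.47 and 6.68 CPM) of replicates 2 and 3 were also the lowest of the group. Their sums for dividing cells were not, at 32.85 and 35.9 CPM, against 34.23 and 24.97 CPM in replicates 1 and 4. The Swarna drought libraries, with at most 1 count of TAW1, had tapetum sums of 5.62 to 11.5 CPM and green tissue sums of 268.4 to 1130 CPM. The part of these lists in the level of TAW1 was not tested.

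The summed counts of TAW1 gave 29.5 times more in DTY-IL drought than in DTY-IL control (27 against 1 counts, exact 95% interval 4.86 to 1210). The spread between replicates 1 to 4 is not in that interval. Over libraries the fitted log2 fold change was 4.2 ± 1.36 in DTY-IL (edgeR, adjusted p = 0.0299) and -1.16 ± 1.54 in Swarna (adjusted p = 0.57). The rise did not pass without DTY-IL drought replicates 2 or 3 (adjusted p = 0.071 and 0.0978), nor without DTY-IL control replicates 1, 2 or 4 (adjusted p = 0.0683, 0.0676 and 0.0639). The drought effects differed by 5.36 ± 2.15 (DTY-IL minus Swarna), with an unadjusted p of 0.0255 that did not pass adjustment over all genes (edgeR, adjusted p = 0.339). Salmon splits reads between similar transcripts, and how far this touches these few counts was not tested.

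APO1, an F-box protein that keeps the inflorescence meristem from turning early into spikelets, had 0, 0, 0 and 1 counts in DTY-IL drought replicates 1 to 4, against 0, 0, 5 and 0 counts in DTY-IL control replicates 1 to 4. In Swarna it had 0, 0, 0 and 1 counts in drought replicates 1 to 4, against 0, 1 and 1 counts in control replicates 1, 2 and 4. Only DTY-IL control replicate 3 exceeded the floor, and APO1 was too low to be tested.

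**Figure D2:**
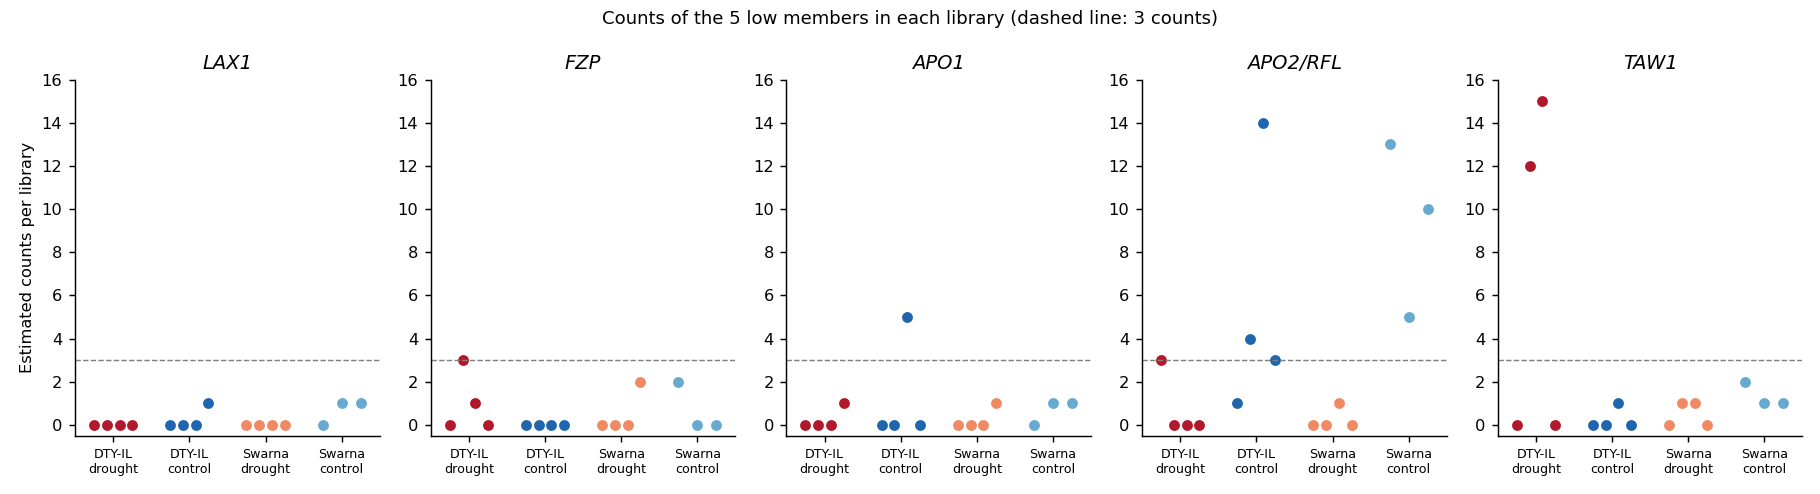
Estimated counts of LAX1, FZP, APO1, APO2/RFL and TAW1 (1 panel each, a shared linear axis) in every library, with points for libraries and a dashed line at the floor of 3 counts. APO2/RFL exceeds the floor in control libraries of both genotypes and in no drought library, and TAW1 exceeds it only in DTY-IL drought replicates 2 and 3, with 12 and 15 counts.

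The spikelet genes SNB and IDS1 did not pass the test for drought in either genotype. SNB, an AP2-domain factor that times the turn from spikelet to floral meristem, ranged from 17.2 to 27.4 CPM in DTY-IL drought, against 21.2 to 27.2 CPM in DTY-IL control. In Swarna it ranged from 19.8 to 25.7 CPM in drought, against 20.4 to 22.9 CPM in control. The drought and control ranges overlapped in both genotypes. The log2 fold change was -0.16 ± 0.14 in DTY-IL (95% interval -0.46 to 0.15, edgeR adjusted p = 0.43) and 0.01 ± 0.16 in Swarna (95% interval -0.32 to 0.34, adjusted p = 0.97). The Swarna value changed sign, to -0.073, with no filter on counts.

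IDS1, a second AP2-domain factor of the spikelet meristem, had 1 control library far above the others. Its level was 14.9, 12.1, 11.2 and 12.8 CPM in DTY-IL drought replicates 1 to 4, against 10.9, 8.80, 19.8 and 8.98 CPM in DTY-IL control replicates 1 to 4. In Swarna it was 12.1, 12.5, 9.86 and 12.3 CPM in drought replicates 1 to 4, against 6.84, 8.01 and 9.52 CPM in control replicates 1, 2 and 4. All DTY-IL drought libraries lay above 3 of the DTY-IL controls and below DTY-IL control replicate 3, and all Swarna drought libraries lay above the Swarna controls.

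The log2 fold change of IDS1 was 0.07 ± 0.23 in DTY-IL (95% interval -0.42 to 0.57, edgeR adjusted p = 0.832) and 0.53 ± 0.25 in Swarna (95% interval -0.01 to 1.07, adjusted p = 0.106). Without DTY-IL control replicate 3 it was 0.42 in DTY-IL (edgeR, adjusted p = 0.0648) and 0.53 in Swarna (adjusted p = 0.0162). Fitted on the Swarna libraries alone, it was 0.54 (edgeR, adjusted p = 0.0306). Under control conditions the log2 fold change of DTY-IL against Swarna was 0.57 ± 0.25, which did not pass adjustment (edgeR, unadjusted p of 0.0387 and adjusted p of 0.419), and 0.23 without DTY-IL control replicate 3.

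FZP, an ERF-family factor that fixes spikelet identity and stops further branching, had 0, 3, 1 and 0 counts in DTY-IL drought replicates 1 to 4, against 0 counts in all 4 DTY-IL control libraries. In Swarna it had 0, 0, 0 and 2 counts in drought replicates 1 to 4, against 2, 0 and 0 counts in control replicates 1, 2 and 4. No library exceeded the floor. When the count filter was dropped, which admitted 43020 genes, LAX1, FZP and APO1 had adjusted p from 0.208 to 1 over all comparisons (edgeR).

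Across the 7 tested members, 2 of 7 had an adjusted p of at most 0.05 for drought in DTY-IL, OSH1 as a fall and TAW1 as a rise, where 33% of all tested genes passed, 16% as rises and 17% as falls. For drought in Swarna 4 of 7 passed, all as falls, where 44.3% of all tested genes passed, 21.6% as rises and 22.7% as falls. All of these calls also reached a log2 fold change of 1 in size, as did 19.8% of tested genes in DTY-IL and 29.5% in Swarna. The drought and control groups did not overlap for 1 of the 7 in DTY-IL, against 29.3% of tested genes, and for 5 of the 7 in Swarna, against 52.2%. Over 7 genes these counts are too small to be set apart from the background.

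The tested members had a median log2 fold change under drought of -0.49 in DTY-IL, with -0.03 for all tested genes, and of -1.16 in Swarna, with 0.00 for all tested genes. The Swarna median is the value of TAW1, whose Swarna counts were under the floor (edgeR, adjusted p = 0.57). The DTY-IL median is the value of MOC1, which did not pass (adjusted p = 0.186). Neither median therefore describes a shared fall of the members. The point estimate was higher in DTY-IL than in Swarna for OSH1, LAX2, MOC1, APO2/RFL and TAW1. Both drought contrasts use separate libraries, and no difference between them passed for any member.

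**Figure D3:**
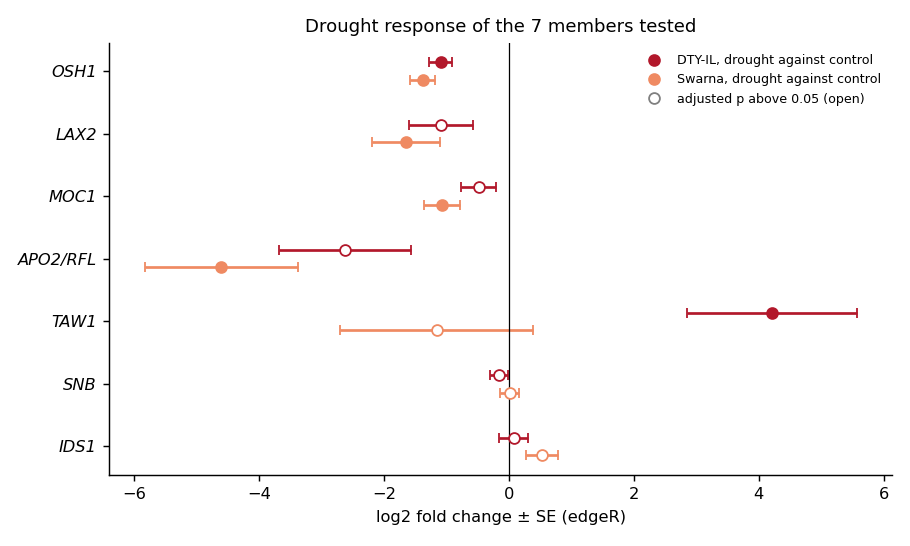
Log2 fold change of drought against control (x axis) for the 7 tested members, with DTY-IL above Swarna in each pair, whiskers for the SE of the edgeR fit and filled points for an adjusted p of at most 0.05. OSH1 is filled in both genotypes, at -1.10 in DTY-IL and -1.38 in Swarna, LAX2, MOC1 and APO2/RFL only in Swarna, and TAW1 only in DTY-IL.

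Between the genotypes, 0 of 7 members passed under drought, where 5% of all tested genes passed (edgeR's quasi-likelihood test), and 1, TAW1, had an unadjusted p under 0.05, as had 21.7% of tested genes. Under control conditions 0 of 7 passed, where 1.2% of all tested genes passed, and MOC1 and IDS1 had an unadjusted p under 0.05, as had 11% of tested genes. In the test of whether the drought effect differed between genotypes 0 of 7 passed, where 0.0594% of all tested genes passed, and again TAW1 alone had an unadjusted p under 0.05, as had 12.3% of tested genes. DESeq2 also called 0 members in each of these 3 comparisons, leaving some low members without an adjusted p. The 4 loci of dividing cells were all higher in DTY-IL than in Swarna under drought at an adjusted p of at most 0.05 (edgeR). In the test of whether the drought effect differed between genotypes 0 of these 4 loci passed, and they were not put through the alternative fits.

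The groups of DTY-IL and Swarna did not overlap for MOC1 and TAW1 under control conditions, 2 of 7 members against 12.9% of tested genes, and for 0 of 7 under drought, against 13.3%. The control levels of TAW1 were at or under the floor in both genotypes. For OSH1 under drought the log2 fold change of DTY-IL against Swarna was -0.02 ± 0.18 with a 95% interval of -0.42 to 0.37 (edgeR, adjusted p = 0.968). Under control conditions it was -0.31 ± 0.20 (edgeR, adjusted p = 0.618).

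Within groups, a few libraries accounted for much of the spread of LAX2, MOC1 and IDS1. On the log2 CPM scale, DTY-IL drought replicate 1 was above the mean of its group by 1.03 for LAX2, 0.68 for MOC1 and 0.44 for OSH1. DTY-IL control replicate 3 was above its group mean by 1.0 for LAX2 and 0.79 for IDS1, and lay at -0.33 for MOC1 and -0.19 for OSH1. Swarna drought replicate 1 was above its group mean by 1.29 for LAX2 and 0.24 for MOC1. Of the 5 members with enough counts for this, LAX2 varied most among the libraries in all 3 of these groups.

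In several of the marker lists, the sums of the first and the second of these libraries lay at the ends of their groups. DTY-IL drought replicate 1 had the highest sum of its group for tapetum loci (40.4 CPM over 6 loci), meiocyte loci (37.2 CPM over 5 loci), floral organ loci (764 CPM) and green tissue loci (4171 CPM). Its sums for pollen loci (8.70 CPM) and loci of dividing cells (34.2 CPM) lay inside the range of its group. DTY-IL control replicate 3 had the highest sum of its group for tapetum loci (201.5 CPM) and meiocyte loci (61.5 CPM), and the lowest for pollen loci (22.7 CPM over 3 loci) and green tissue loci (5731 CPM). The third library, Swarna drought replicate 1, had the highest floral organ sum of its group (570.6 CPM). Its tapetum sum (7.92 CPM) and meiocyte sum (23.2 CPM) lay inside the range of its group. Over all libraries the tapetum sums were 8.29 to 40.4 CPM in DTY-IL drought, 37.7 to 201.5 CPM in DTY-IL control, 5.62 to 11.5 CPM in Swarna drought and 55.3 to 75.2 CPM in Swarna control. The meiocyte sums were 23.7 to 37.2 CPM in DTY-IL drought, 30.3 to 61.5 CPM in DTY-IL control, 18.4 to 23.5 CPM in Swarna drought and 33.8 to 48.2 CPM in Swarna control. The pollen sums were 6.47 to 15.6 CPM in DTY-IL drought, 22.7 to 58.9 CPM in DTY-IL control, 5.70 to 21.9 CPM in Swarna drought and 78.8 to 94.2 CPM in Swarna control. By locus, 1 of the 5 meiocyte loci fell in DTY-IL and 2 fell in Swarna, while the median log2 fold change of the 5 was 0.20 in DTY-IL and 0.23 in Swarna. Of the 6 tapetum loci 2 fell in DTY-IL and 3 in Swarna. In Swarna LOC_Os08g03682 and LOC_Os03g07250 had positive log2 fold changes, 0.50 and 0.64, that did not pass (edgeR, adjusted p = 0.701 and 0.7). All 3 pollen loci fell in both genotypes. Of all tested genes 17% fell in DTY-IL and 22.7% in Swarna. No locus of these lists was at 0 in any of the 15 libraries, and the part of anther content or stage in the levels of LAX2, MOC1 and IDS1 was not tested.

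**Figure D4:**
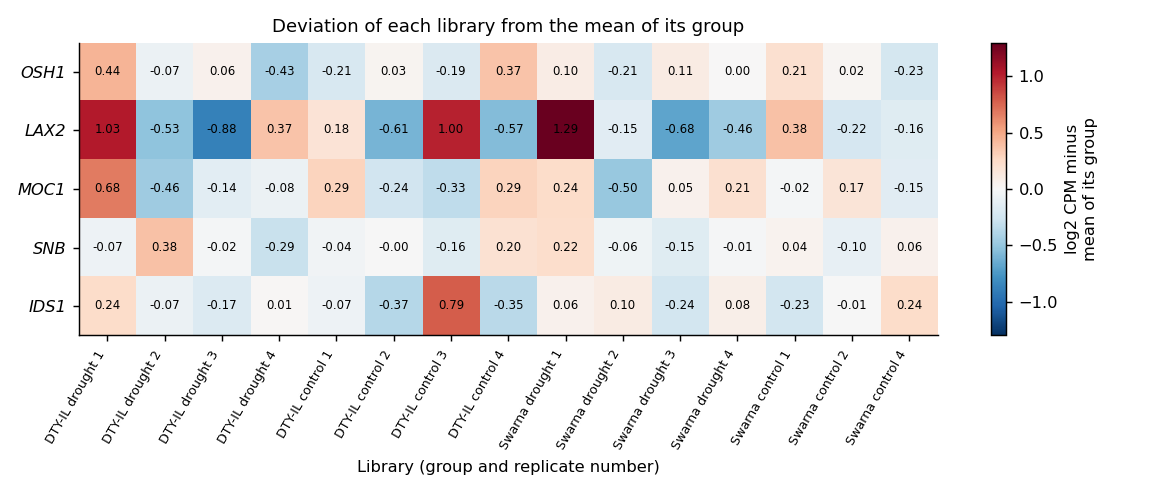
Deviation of each of the 15 libraries (x axis) from the mean of its group, in log2 CPM, for the 5 members with a mean of at least 20 counts (y axis), with red above and blue below the group mean. The largest values belong to LAX2, at 1.29 in Swarna drought replicate 1, 1.03 in DTY-IL drought replicate 1 and 1.0 in DTY-IL control replicate 3.

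Beside the members, 44 loci related by pathway or family were listed from general knowledge of rice, of which 43 could be tested. They are given by locus only, since no name for them was found in the files, the study or the reference names. For drought in DTY-IL 3 rose and 14 fell, 39.5% of the tested loci, and for drought in Swarna 5 rose and 16 fell, 48.8%, where 33% and 44.3% of all tested genes passed. Their median log2 fold change under drought was -0.39 in DTY-IL and -0.50 in Swarna. Fewer passed between the genotypes, 1 fall under drought, 1 fall under control conditions and 0 interactions by edgeR. Of all tested genes 5%, 1.2% and 0.0594% passed in these 3 comparisons. DESeq2 called 6 under drought, 2 under control conditions and 1 interaction. It also called more of all genes than edgeR, with 3548, 920 and 795 in the same order.

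Among 5 class I KNOX loci, the family of OSH1, 3 fell in DTY-IL, while 2 fell and 1 rose in Swarna. That is 60% in each genotype, where 33% of all tested genes passed in DTY-IL and 44.3% in Swarna. A list of 5 loci is too small to be set apart from that background. LOC_Os03g56110 had the largest of these falls, with a log2 fold change of -1.82 for drought in DTY-IL (edgeR, adjusted p = 0.00421) and -2.97 in Swarna (adjusted p = 0.000134). LOC_Os01g19694 rose by 0.89 on the log2 scale in Swarna (edgeR, adjusted p = 0.0254). LOC_Os03g51710 was lower in DTY-IL than in Swarna under drought, with a log2 fold change of -0.89 (edgeR, adjusted p = 0.0447). That call was lost in 9 of the 15 fits that left out a library (edgeR, adjusted p from 0.0337 to 0.146 over the 15). Leaving out 1 library also lost the rise of LOC_Os01g19694 in 4 of 15 fits (adjusted p up to 0.132).

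The 3 AP2 loci related to SNB and IDS1 all passed in both genotypes, 2 as falls and 1 as a rise. Of all tested genes 33% passed in DTY-IL and 44.3% in Swarna, and 3 loci are too few to be set apart from that background. LOC_Os06g43220 had a log2 fold change of -1.69 for drought in DTY-IL (edgeR, adjusted p = 0.00587) and -2.49 in Swarna (adjusted p = 0.00042). LOC_Os05g03040 rose by 0.54 on the log2 scale in DTY-IL (edgeR, adjusted p = 0.00883), and did not pass without DTY-IL drought replicate 2 (adjusted p = 0.0564). SNB and IDS1 themselves passed in neither genotype.

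Of 9 ALOG loci related to TAW1, 8 could be tested, with 1 fall in DTY-IL (12.5%) and with 3 falls and 1 rise in Swarna (50%). Of all tested genes 33% passed in DTY-IL and 44.3% in Swarna. The ALOG rise was LOC_Os05g39500, with a log2 fold change of 1.55 (edgeR, adjusted p = 0.0162), and was lost without Swarna control replicate 2 or 4 (adjusted p up to 0.0744). Of 27 other regulators of panicle and spikelet meristems, 2 rose and 8 fell in DTY-IL, and 2 rose and 9 fell in Swarna. These are 37% and 40.7% of the 27, near the shares of all tested genes. LOC_Os07g41370 rose in both genotypes, on the log2 scale by 0.35 in DTY-IL (edgeR, adjusted p = 0.0442) and 0.72 in Swarna (adjusted p = 0.000922), and LOC_Os01g10110 rose by 1.95 in DTY-IL (adjusted p = 0.0428). LOC_Os04g45330 had a log2 fold change of -3.73 for drought in Swarna (edgeR, adjusted p = 0.000445) and -1.47 in DTY-IL, which did not pass (adjusted p = 0.0635). LOC_Os06g50340 fell in both genotypes, with -0.98 in DTY-IL (edgeR, adjusted p = 0.00756) and -0.96 in Swarna (adjusted p = 0.007). LOC_Os01g40630 was lower in DTY-IL than in Swarna under control conditions, with a log2 fold change of -1.34 (edgeR, adjusted p = 0.05). That call was lost in 13 of the 15 fits that left out a library (edgeR, adjusted p from 0.015 to 0.289 over the 15). In DTY-IL the rise of LOC_Os07g41370 was lost in 12 of 15 such fits (adjusted p up to 0.104) and that of LOC_Os01g10110 in 8 of 15 (up to 0.226). With all 16 libraries the log2 fold change of LOC_Os07g41370 in Swarna was -0.38 and did not pass (edgeR, adjusted p = 0.562).

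**Figure D5:**
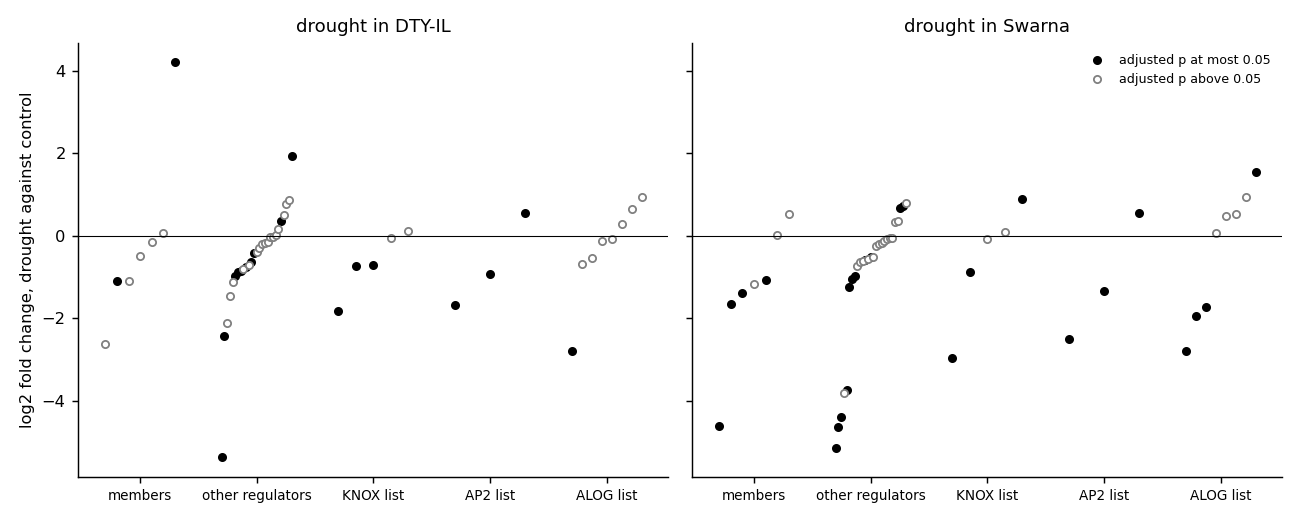
Log2 fold change of drought against control (y axis) for each tested member and related locus, in DTY-IL (left panel) and Swarna (right panel), with 1 point per locus sorted within its list and filled points for an adjusted p of at most 0.05. Filled points lie mostly below 0, as 14 of the 17 related loci that passed in DTY-IL and 16 of the 21 that passed in Swarna fell.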

How the data were processed

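RNA of whole panicles was sequenced on an Illumina HiSeq instrument. The authors trimmed the reads with Trimmomatic, quantified them with Salmon 0.7.2, with correction for sequence and GC bias, against Nipponbare transcripts of RGAP release 7, and summed them to genes. The values are the deposited estimated counts, whole numbers without normalization. Pots stood in randomized blocks. Columns are numbered 1 to 4 within each group, while the sample titles carry other numbers whose meaning (pot or block) is not stated, so a column could be matched to its group only. The authors' DESeq2 tables (mean normalized count, log2 fold change, its SE, statistic, p and adjusted p) were not used.

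A gene was kept if its counts over 15 libraries summed to 10 or more. Kept genes were scaled with TMM factors and fitted with all 4 groups in 1 model (edgeR 4.0.16, R 4.3.3). The quasi-likelihood test was applied per comparison, with Benjamini-Hochberg adjustment over all genes tested and a threshold of 0.05. The SE of a log2 fold change was its size divided by the square root of F. The fit was checked on simulated counts. Replicates were independent plants. Ratios of summed counts have exact 95% intervals. Alternatives were DESeq2 1.42.0, RLE factors, filterByExpr, all 16 libraries, no filter, fits of only the groups compared, a test against a 1-unit log2 change, CPM without factors, and leaving out each library. Figures were drawn with matplotlib 3.10.9.

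The members, gene lists and marker lists were chosen with earlier results of these data known. All members are named, and of the related loci up to 3 called per direction and comparison with the largest change and a mean of at least 1 CPM. Promoter and protein sequences were not analysed here.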

Additional observations from a re-analysis of the deposited data

Results flagged for a closer look

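In 27 member groups of 4 libraries with any spread, the highest or lowest library was set against the rest, and 10 stood apart by a gap, as a share of the group's range, above Dixon's 95% critical value. Chance alone sets apart about 1 in 20 groups, and where all other libraries are at 0 a single count is enough. LAX2 in Swarna drought replicate 1 was 3.6 CPM, with the others at 0.918 to 1.33 CPM. IDS1 in Swarna drought replicate 3 was 9.86 CPM, with the others at 12.1 to 12.5 CPM. The remaining 8 were single libraries with few counts where the others had 0. These were LAX1 in DTY-IL control replicate 4 (0.0404 CPM, 1 count), FZP in Swarna drought replicate 4 (0.0795 CPM, 2 counts) and TAW1 in DTY-IL control replicate 3 (0.034 CPM, 1 count). APO1 stood apart in DTY-IL drought replicate 4 (0.0377 CPM, 1 count), DTY-IL control replicate 3 (0.17 CPM, 5 counts) and Swarna drought replicate 4 (0.0397 CPM, 1 count). APO2/RFL did so in DTY-IL drought replicate 1 (0.111 CPM, 3 counts) and Swarna drought replicate 3 (0.0382 CPM, 1 count).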

How the results depend on the processing

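The number of members called for drought in DTY-IL, 2, was 1 with filterByExpr or with only the groups compared, and 0 with all 16 libraries or in a test against a log2 change of 1 in either direction. The number for drought in Swarna, 4, was 1 with all 16 libraries and 1 in the test against 1. Leaving out each library gave 1 to 5 members in DTY-IL (5 without DTY-IL drought replicate 1) and 3 to 5 in Swarna. With all 16 libraries the sign changed for LAX2 (0.15) and OSH1 (0.11) in DTY-IL against Swarna under control, and for OSH1 in the interaction (-0.14). SNB in Swarna drought was -0.073 with no filter. None of these passed a test. OSH1 passed in both genotypes except with all 16 libraries and in the test against 1 (adjusted p = 0.529 in DTY-IL and 0.0638 in Swarna, edgeR). APO2/RFL in Swarna passed in all 22 alternatives.

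Over all genes, the count of calls for drought in DTY-IL, 11120, was 4032 with all 16 libraries, 1510 in the test against 1, and 7930 to 11109 without each library. For drought in Swarna, 14918 calls became 9265, 4778 and 12039 to 15904. DTY-IL against Swarna under drought had 1684 calls, and 3548 with DESeq2, 479 with all 16 libraries, 305 in the test against 1, 924 with only the groups compared, and 811 to 2421 without each library. Under control it had 403, and 920 with DESeq2, 205 in the test against 1 and 256 to 390 without each library. The interaction had 20, and 795 with DESeq2, 0 with all 16 libraries, 3 in the test against 1 and 2 to 27 without each library. The related loci called fell to 3 in DTY-IL and 11 in Swarna with all 16 libraries, and to 2 and 8 in the test against 1.

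Without each library, values that changed sign ranged from -0.052 to 0.42 for IDS1 in DTY-IL drought and from -0.073 to 0.075 for SNB in Swarna drought. Between genotypes under drought they were -0.003 to 1.07 for LAX2, -0.31 to 0.11 for MOC1, -1.61 to 2.82 for APO2/RFL, -0.17 to 0.10 for OSH1 and -0.18 to 0.037 for SNB. They were -0.58 to 0.080 for LAX2 under control and -0.77 to 3.61 for APO2/RFL in the interaction. No paired analysis was possible because the columns carry numbers other than those of the sample titles, so the blocks of the pot experiment could not be assigned to columns. Where not given here, the causes were not tested. Depth limits LAX1, FZP, APO1, APO2/RFL and TAW1.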
